A study of Bos taurus with 6 samples.

Results

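The miRNAs described here are the 8 mature bovine miRNAs named after miR-15, miR-16, miR-195, miR-497, miR-103 or miR-107, namely bta-miR-15a, bta-miR-15b, bta-miR-16a, bta-miR-16b, bta-miR-195, bta-miR-497, bta-miR-103 and bta-miR-107. They were taken by name from the 755 mature miRNAs of the files. All 8 passed the filter for testing, which asked for 1 read or more in 2 or more replicates of either follicle type and left 353 of the 755 miRNAs. Small RNA was sequenced from granulosa cells, the somatic cells that line the follicle wall. The oocytes and the cumulus cells around them had been collected separately. There were 3 libraries from preovulatory dominant follicles and 3 from anovulatory subordinate follicles, both of day 19 of the estrous cycle. All follicles came from Simmental heifers whose estrus had been synchronized with a prostaglandin analogue and a GnRH analogue, so that both groups share this treatment. Follicles were assigned to a group by their diameter, and RNA was pooled to make each library. A library of the dominant group can hold very few follicles and one of the subordinate group many, so the spread between libraries may have a different meaning in each group. As nothing in the labels ties a library to separate animals, p-values measure the spread between these pools.

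A miRNA guides the silencing complex to mRNAs that pair with its seed, bases 2 to 8 counted from the 5′ end. MiR-15, miR-16, miR-195 and miR-497 share a seed and are known for holding cells in the first gap phase of the cell cycle, through cyclin D1, cyclin E1 and CDK6, and for lowering the survival factor BCL2. MiR-103 and miR-107 carry a seed shifted by a single base against it, so their targets overlap with those of the miR-15/16 miRNAs, and they are also known for targeting DICER1 and caveolin-1 and for a role in insulin and lipid metabolism. In granulosa cells, proliferation ends when the follicle prepares for ovulation or becomes atretic, which makes cell cycle miRNAs of interest in this tissue. The question was whether these miRNAs, their genomic clusters and their summed amount differ between the dominant follicle and its subordinate companions.

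The members come from 9 precursor genes, which were all found in the RefSeq annotation of ARS-UCD2.0. This is another assembly than the one the reads were mapped to, and it was used for names and neighbours only. Bta-mir-15a lies beside bta-mir-16a, in a transcribed pseudogene without a name (LOC100847818). Bta-mir-15b lies beside bta-mir-16b within the span of SMC4, which encodes a subunit of the condensin complex that compacts mitotic chromosomes. Bta-mir-195 lies beside bta-mir-497 in a long non-coding RNA gene (LOC107131510). Bta-miR-103 can come from bta-mir-103-1, within PANK3, and from bta-mir-103-2, within PANK2. Bta-mir-107 lies within PANK1, and none of these 3 precursors has another miRNA gene within 10 kb. PANK genes encode pantothenate kinases, the enzymes of the first step of coenzyme A synthesis. The members thus fall into 3 clusters of a pair each and a group of PANK host genes.

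Members were read in every library, from 62 reads of bta-miR-15a in subordinate replicate 3 to 2289 reads of bta-miR-16b in subordinate replicate 1. The lowest of these counts has an exact 95% Poisson interval of 47.5 to 79.5 reads, which covers counting error only. The libraries held between 190385 and 311842 reads in dominant and between 306932 and 364125 reads in subordinate follicles, with 1 value per mature miRNA. Together the 8 members made up 1.84, 1.88 and 1.88% of these reads in the dominant libraries. In the subordinate libraries they made up 1.62, 1.499 and 1.33%, less than in any dominant library. Levels below are CPM (counts scaled to a common library size with edgeR's TMM factors), on which the groups differed less in the whole family. Cloning of small RNA depends on the sequence of its ends, so levels of different members are compared only roughly.

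The 8 members were not alike in abundance, and their order was nearly the same in both follicle types. Bta-miR-16b was the most abundant, with rank 25 of 353 by mean level, and bta-miR-15a the least, with rank 111. In subordinate follicles the order was bta-miR-16b, bta-miR-195, bta-miR-103, bta-miR-16a, bta-miR-15b, bta-miR-497, bta-miR-107 and bta-miR-15a. The ranges of neighbours in that order did not overlap except for bta-miR-16a and bta-miR-15b, at 1243 ± 170 and 1205 ± 56.4 CPM (SD, n = 3 each). In dominant follicles bta-miR-107 moved up to the 5th place and bta-miR-15b down to the 7th. The pairs bta-miR-16b and bta-miR-195, bta-miR-16a and bta-miR-107, and bta-miR-497 and bta-miR-15b had overlapping ranges there.

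**Figure D1:**
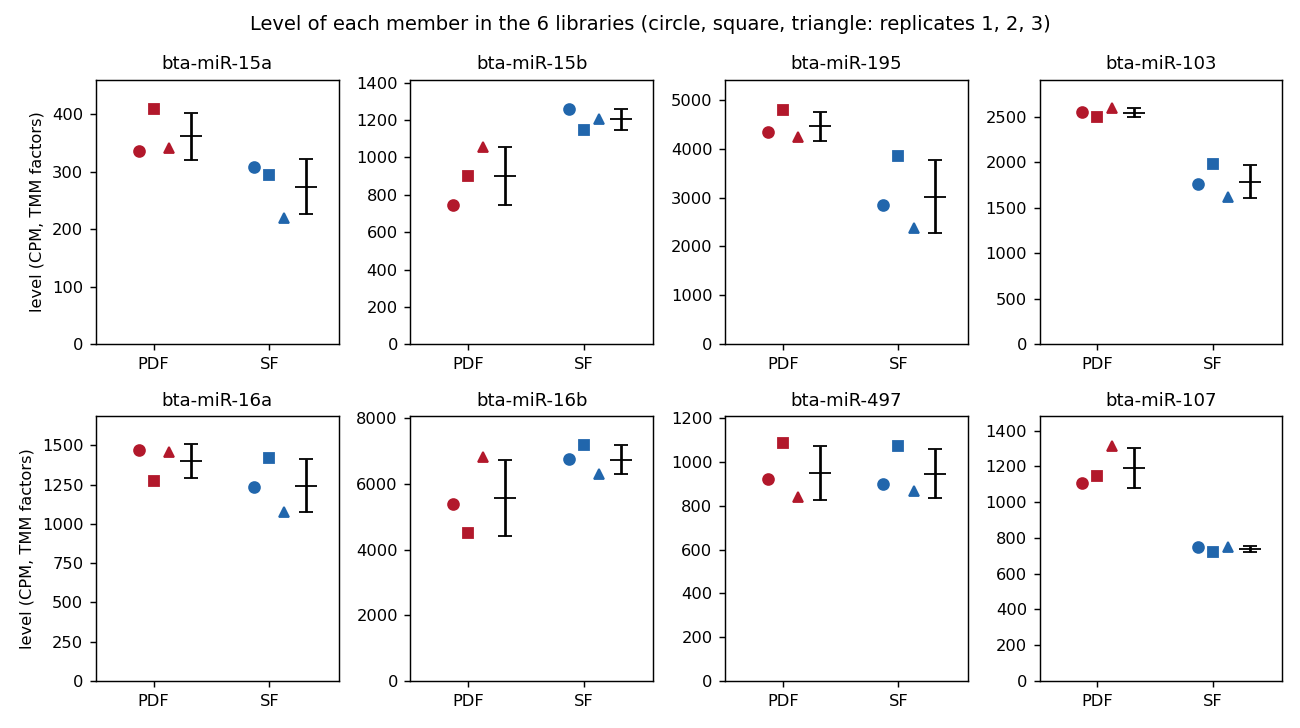
Level of the 8 members in each library, in CPM with TMM factors on a linear axis from 0, for preovulatory dominant follicles (PDF, red) and subordinate follicles (SF, blue). Circles, squares and triangles are replicates 1, 2 and 3, and the black mark and bar are the mean and SD of 3 libraries. The groups are separate for bta-miR-103, bta-miR-107, bta-miR-195, bta-miR-15a and, with dominant follicles lower, bta-miR-15b.

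In dominant follicles bta-miR-103, bta-miR-107 and bta-miR-195 were higher by moderate amounts, bta-miR-15b and bta-miR-16b had lower means, and bta-miR-497 had nearly the same mean in both. None of the 8 members was called in edgeR's quasi-likelihood test by the study's thresholds, which ask for a log2 fold change of 1 or more in either direction, a p no higher than 0.05 and a false discovery rate no higher than 0.1. DESeq2 called none of them either. Of all 353 miRNAs, 21.5% were called, 42 (11.9%) higher and 34 (9.63%) lower in dominant follicles. With total count scaling in place of TMM the calls split into 47 higher and 23 lower. Among the 134 miRNAs that averaged 50 reads or more, as each member did, 29.9% were called in the main fit. Some of the 353 names hold equal values, such as bta-miR-129 and bta-miR-129-5p, both called. The shares of all tested miRNAs given here thus count some reads more than once. Of the members, 3 had an unadjusted p under 0.05 in edgeR and 4 in DESeq2, against 33.4% and 30.7% of all tested miRNAs, respectively. With the false discovery rate alone as the rule, 3 of 8 members passed, all higher in dominant follicles, against 30.3% of all tested miRNAs in either direction, 16.1% in this direction and 14.2% in the other. The CPM of the groups did not overlap for 5 of 8 members, of which 4 were higher in dominant follicles, against 36.8% of all tested miRNAs and 18.4% in that direction. The log2 fold change was above 0 for 6 of 8 members, against 46.2% of all tested miRNAs. Its median was 0.29 over the members, -0.20 over all 353 miRNAs and -0.10 over the 134 that averaged 50 reads or more. Scaling by total count moved the median of all miRNAs to -0.012.

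The miR-103 and miR-107 pair showed the most even difference. Bta-miR-103 had 2548, 2495 and 2589 CPM in the 3 dominant libraries and 1754, 1980 and 1620 CPM in the subordinate ones. All dominant libraries were thus above all subordinate ones, and the dominant libraries differed from each other by little. Its log2 fold change was 0.51 (standard error 0.17, 95% interval 0.13 to 0.90, adjusted p = 0.0608 in edgeR's test). Bta-miR-107 had 1104, 1146 and 1315 CPM in dominant and 747, 721 and 748 CPM in subordinate libraries. Again the groups were apart, here with the narrower spread on the subordinate side. The log2 fold change of bta-miR-107 was 0.69 (standard error 0.18, 95% interval 0.28 to 1.09, adjusted p = 0.0294). The 2 precursor rows of bta-miR-103 differed by at most 4 reads in any library, so the reads do not tell whether they came from the locus in PANK3 or the one in PANK2.

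Of the cluster of miR-195 and miR-497, only bta-miR-195 passed the false discovery rate, and its cluster partner had nearly the same mean in both groups. Bta-miR-195 had 4347, 4792 and 4229 CPM in dominant and 2850, 3839 and 2368 CPM in subordinate libraries. The groups did not overlap, although subordinate replicate 2 came near the lowest dominant library. Its log2 fold change was 0.56 (standard error 0.21, 95% interval 0.09 to 1.04, adjusted p = 0.0904). Bta-miR-497, which lies in the same non-coding gene, had 921, 1085 and 841 CPM in dominant and 901, 1074 and 868 CPM in subordinate libraries. These values overlapped fully. Within each group, the libraries had the same order for both miRNAs. The log2 fold change of bta-miR-497 was 0.0011 (95% interval -0.45 to 0.45, adjusted p = 0.996), and its sign turned with DESeq2's size factors, to -0.012.

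Whether a member passed by false discovery rate alone depended on single libraries for bta-miR-103 and bta-miR-195, but not for bta-miR-107. Bta-miR-107 passed whenever 1 library was left out. Bta-miR-103 failed without dominant replicate 1, without dominant replicate 3 and without subordinate replicate 1, and bta-miR-195 failed without any 1 of the dominant libraries, without subordinate replicate 1 and without subordinate replicate 3. Of these 3, bta-miR-107 alone was left without dominant replicate 1, without dominant replicate 3 or without subordinate replicate 1, and 2 were left without dominant replicate 2 or without subordinate replicate 3. Without dominant replicate 3, bta-miR-15b passed beside bta-miR-107, with a log2 fold change of -0.57. With no filter on low counts bta-miR-103 was lost and 2 members passed. The size of the difference moved less, between 0.45 and 0.59 for bta-miR-103, between 0.59 and 0.74 for bta-miR-107 and between 0.41 and 0.77 for bta-miR-195 on the log2 scale.

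The miR-15b/16b cluster pointed the other way, without passing the test. Bta-miR-15b had 748, 900 and 1054 CPM in dominant and 1261, 1148 and 1207 CPM in subordinate libraries. Every dominant library was below every subordinate one, as in 18.4% of all tested miRNAs. Its log2 fold change was -0.42 (standard error 0.20, 95% interval -0.87 to 0.03, adjusted p = 0.176 in edgeR's test). Bta-miR-16b had 5399, 4522 and 6818 CPM in dominant and 6760, 7181 and 6292 CPM in subordinate libraries, and dominant replicate 3 lay among the subordinate libraries. For bta-miR-16b the log2 fold change was -0.27 (95% interval -0.70 to 0.16, adjusted p = 0.327). Both intervals lie within the fold threshold of 1. The value of bta-miR-16b rested on single libraries, at -0.12 without dominant replicate 2 and -0.44 without dominant replicate 3.

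Of the miR-15a/16a cluster neither member passed. Bta-miR-15a had 335, 408 and 341 CPM in dominant and 307, 294 and 219 CPM in subordinate libraries, which did not overlap but lay close together. The log2 fold change was 0.40 (95% interval -0.12 to 0.92, adjusted p = 0.249). Bta-miR-16a had 1471, 1276 and 1455 CPM in dominant and 1237, 1417 and 1076 CPM in subordinate libraries, where the groups overlapped. Its log2 fold change was 0.17 (95% interval -0.26 to 0.60, adjusted p = 0.525). It was 0.079 without subordinate replicate 3 and 0.27 without dominant replicate 2 or subordinate replicate 2. MiR-16a and miR-16b are nearly the same RNA, as are miR-103 and miR-107, and reads that stop before the bases in which they differ could be counted on either. How such reads were shared out is not stated in the sources used here. The values show that reads fitting several entries can be counted on each. The 2 rows of bta-miR-103 were nearly equal, and bta-miR-199a-3p and bta-miR-199c both averaged 291 reads with equal levels. How many reads of miR-16a and miR-16b, or of miR-103 and miR-107, were counted on both was not tested. The single levels of these miRNAs and their ratios are uncertain to that extent. Sums are not free of this, since a read counted on each name would enter a sum more than once. The cluster sums also keep miR-16a and miR-16b apart.

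**Figure D2:**
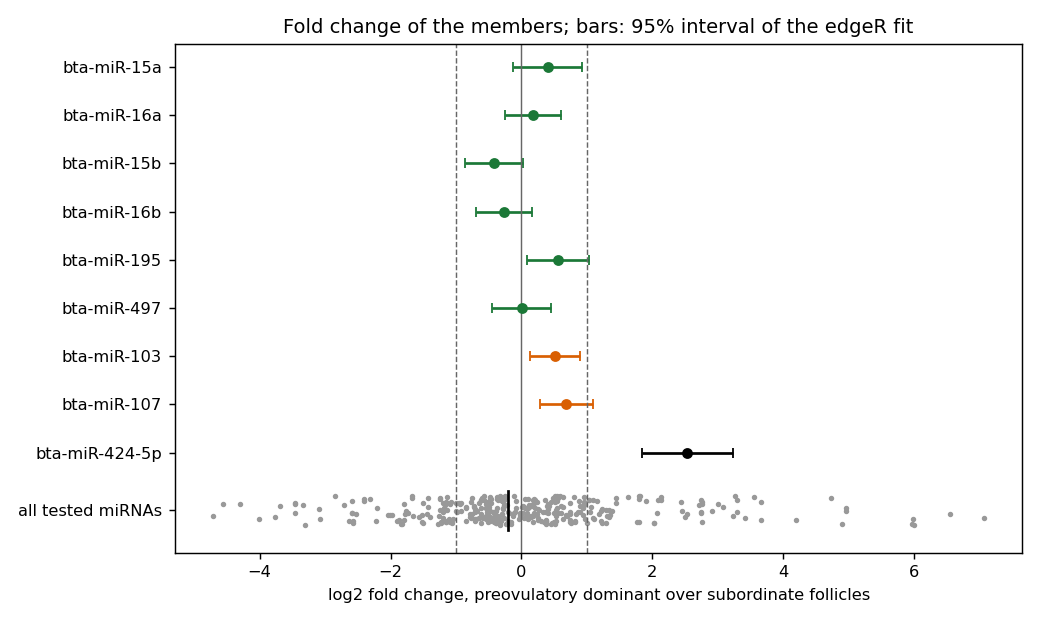
Log2 fold change of each member and of bta-miR-424-5p (preovulatory dominant over subordinate follicles) with its 95% interval, above the log2 fold changes of all 353 tested miRNAs (grey points, vertical line at their median of -0.20). Dashed lines mark a log2 fold change of 1 in either direction. The 8 members lie between -0.42 and 0.69, and bta-miR-424-5p lies at 2.53.

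When all members were added up in CPM with TMM factors, the family was nearly as abundant in one follicle type as in the other. The shares of some members in that sum differed between the libraries of the groups. The 8 members summed to 16874, 16624 and 18641 CPM in dominant libraries and 15817, 17654 and 14398 CPM in subordinate ones, and the groups overlapped. The means were 17380 ± 1099 and 15956 ± 1633 CPM (SD, n = 3 each), a ratio of 1.09. The 6 members with the miR-15/16 seed summed to 13647 ± 951 CPM in dominant and 13433 ± 1465 CPM in subordinate follicles (SD, n = 3 each), a ratio of 1.02. MiR-103 and miR-107 summed to 3652, 3641 and 3904 CPM in dominant and 2501, 2701 and 2368 CPM in subordinate libraries, without overlap and with a ratio of means of 1.48. Sums have no p here, since the members were chosen with earlier results of these data known. With total count scaling the ratios on the log2 scale moved from 0.12 to 0.33 for the 8 members, from 0.02 to 0.23 for the 6 and from 0.56 to 0.77 for the pair. With 1 library left out, that of the 8 members lay between 0.054 without subordinate replicate 3 and 0.20 without subordinate replicate 2, and was 0.070 without dominant replicate 3. That of the 6 turned to -0.036 without dominant replicate 3 and to -0.051 without subordinate replicate 3.

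Among the clusters, the sum of miR-195 and miR-497 was higher in dominant libraries without overlap, at 5268, 5877 and 5069 CPM against 3750, 4913 and 3236 CPM. The miR-15b/16b sum was 6147, 5422 and 7872 CPM in dominant and 8021, 8329 and 7499 CPM in subordinate libraries, and dominant replicate 3 overlapped with the latter. The miR-15a/16a sum was 1762 ± 68.1 and 1517 ± 209 CPM (SD, n = 3 each), with overlap. As a share of the 8 members, the miR-15b/16b cluster took 36.4, 32.6 and 42.2% in dominant libraries. In subordinate libraries it took 50.7, 47.2 and 52.1%, above every dominant library. Bta-miR-195 alone made up 25.8 ± 3.07% of the family in dominant and 18.7 ± 2.72% in subordinate follicles (SD, n = 3 each). MiR-103 and miR-107 made up 21.5 ± 0.497% and 15.9 ± 0.575% (SD, n = 3 each). Shares of a family add up to a fixed total, so a higher share of 1 member forces lower shares elsewhere.

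**Figure D3:**
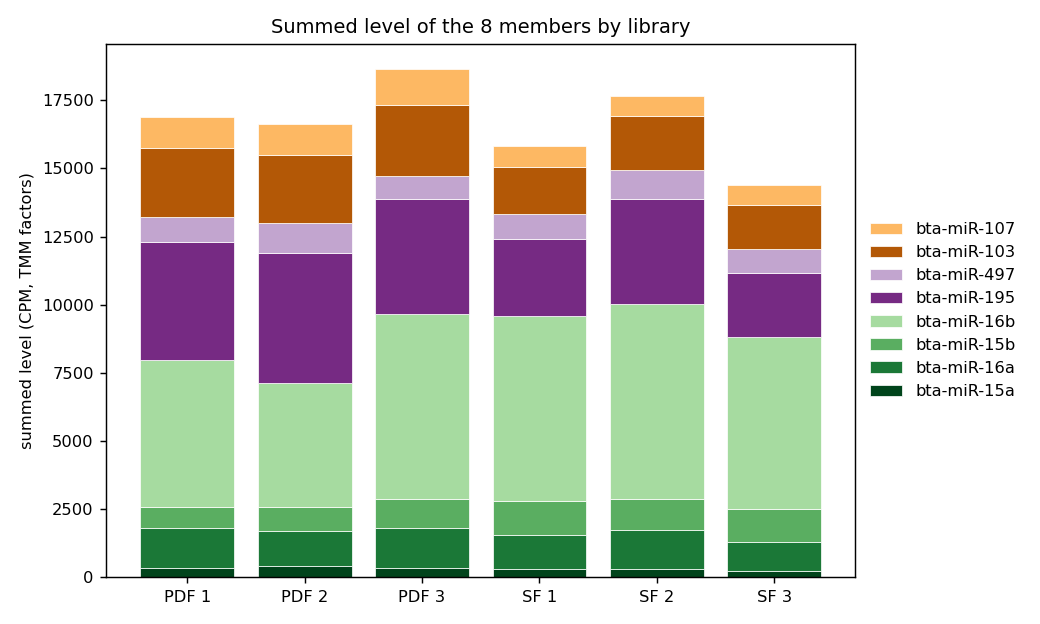
Summed level of the 8 members in each library, in CPM with TMM factors from 0, divided by member. PDF 1 to 3 are the libraries of preovulatory dominant follicles and SF 1 to 3 those of subordinate follicles. The total height overlaps between the groups, while the light green part of bta-miR-16b is a larger share of the family, 42.4 ± 1.55% against 31.9 ± 4.68% (SD, n = 3 each), in subordinate follicles.

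Ratios of members within a library do not depend on its scaling. The log2 ratio of reads of miR-195 to miR-497 was 2.23, 2.14 and 2.33 in dominant and 1.66, 1.83 and 1.44 in subordinate libraries. The cluster partners thus stood further apart in every dominant library, by 0.59 on average (two-sided exact permutation test, p = 0.1, the smallest that 3 libraries against 3 allow). Adjusted over 6 ratios this p became 0.2, so no ratio could pass a threshold of 0.05. The log2 ratio of miR-16a to miR-16b, the near-identical products of separate clusters, was -1.87, -1.82 and -2.23 in dominant and -2.45, -2.34 and -2.54 in subordinate libraries. The groups did not overlap here either, with a difference of 0.47 (exact permutation test, p = 0.1, adjusted 0.2).

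The partners of the other clusters kept closer to each other. The log2 ratio of miR-15b to miR-16b was -2.62 ± 0.27 in dominant and -2.48 ± 0.14 in subordinate follicles (SD, n = 3 each; exact permutation test, p = 0.6). For miR-15a to miR-16a it was -1.95 ± 0.27 and -2.18 ± 0.15 (SD, n = 3 each; exact permutation test, p = 0.3). The log2 ratio of miR-103 to miR-107 was 1.10 ± 0.12 and 1.26 ± 0.17 (SD, n = 3 each; exact permutation test, p = 0.3). These ratios overlapped between the groups, and differences of the size of the spread would not have been seen. The summed members with the miR-15/16 seed exceeded the summed miR-103 and miR-107 by a log2 ratio of 1.86, 1.83 and 1.92 in dominant libraries. In subordinate libraries this ratio was 2.41, 2.47 and 2.34, higher in each of them.

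**Figure D4:**
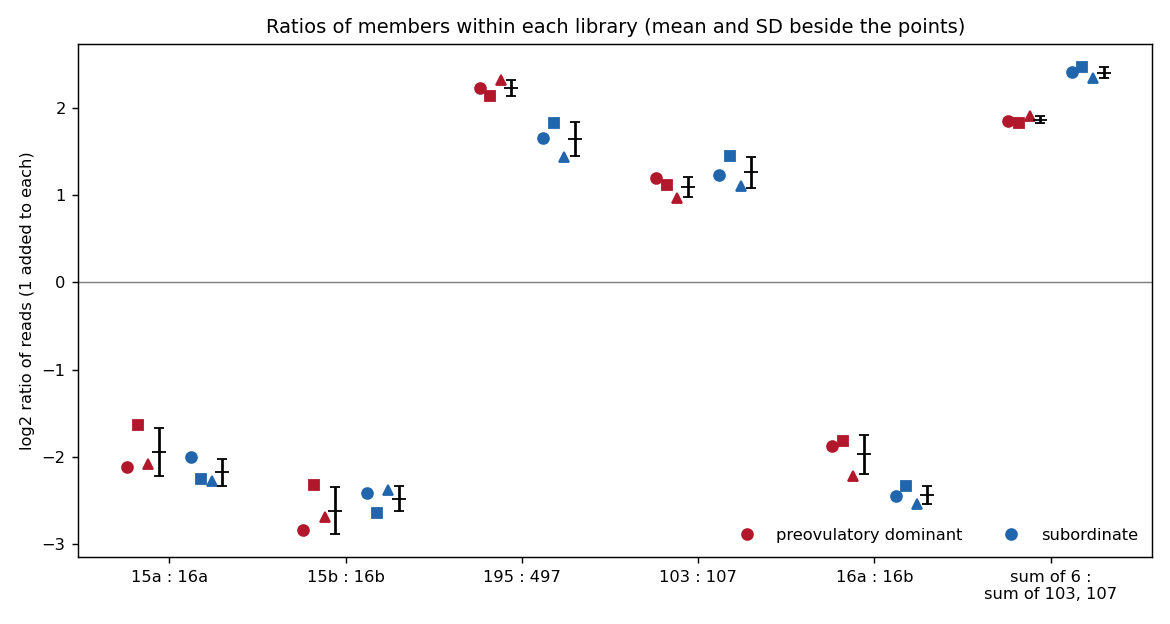
Log2 ratio of the reads of paired members in each library, with 1 read added to both, for preovulatory dominant (red) and subordinate (blue) follicles. Circles, squares and triangles are replicates 1, 2 and 3, and the black mark and bar are the mean and SD of 3 libraries. The groups are separate for miR-195 to miR-497, for miR-16a to miR-16b and for the sum of the 6 members with the miR-15/16 seed over the sum of miR-103 and miR-107.

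Replicates with the same number tended to deviate together from the means of their groups, most weakly for number 1 (correlation r = 0.14). Dominant replicate 2 with subordinate replicate 1 had a higher r of 0.19, so a comparison number by number is tentative. Bta-miR-103, bta-miR-107, bta-miR-195 and bta-miR-15a were higher in the dominant library of all 3 numbers, and bta-miR-15b was lower in all 3. The groups did not overlap for these members, so any pairing of the libraries would give this and it adds no further evidence. The log2 differences of bta-miR-107 were 0.56, 0.67 and 0.81, and those of bta-miR-15b were -0.75, -0.35 and -0.19. Bta-miR-16b was lower in numbers 1 and 2 by 0.32 and 0.67 and higher in number 3 by 0.12.

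Levels of miRNAs known from other cells differed between the libraries. MiR-16 is also abundant in red blood cells. The summed red blood cell markers bta-miR-451, bta-miR-486 and bta-miR-144 were 13091 and 8247 CPM in dominant replicates 1 and 2. They were 1048 CPM in dominant replicate 3 and between 808 and 1530 CPM in subordinate libraries. In dominant replicates 1, 2 and 3, bta-miR-16b was at 5399, 4522 and 6818 CPM and bta-miR-16a at 1471, 1276 and 1455 CPM. With dominant replicate 3 alone against the subordinate libraries, the log2 fold change was 0.52 for bta-miR-103, 0.81 for bta-miR-107 and 0.47 for bta-miR-195, and none of them passed (adjusted p = 0.290, 0.127 and 0.384 in edgeR's test). That of bta-miR-16b became -0.0017 and that of bta-miR-15b -0.21. This fit assumes that the lone library varies like the subordinate ones.

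The endothelial markers bta-miR-126-5p and bta-miR-126-3p summed to between 73.2 and 293 CPM in dominant and between 354 and 540 CPM in subordinate libraries. The 5 theca and stroma markers, led by bta-miR-143, summed to between 17603 and 27823 CPM and between 21064 and 35751 CPM, respectively, with overlap. All 5 had log2 fold changes below 0, and bta-miR-214, with 13, 14 and 14 reads in dominant and 35, 30 and 44 reads in subordinate libraries, was called lower (log2 fold change -1.20, adjusted p = 0.0417 in edgeR's test). Of 4 white blood cell markers 3 were tested, with sums between 258 and 1112 CPM in dominant and between 408 and 558 CPM in subordinate libraries. Bta-miR-142-3p had at most 1 read in any library. Bta-miR-202, which is enriched in gonads, was read at between 43510 and 46751 CPM in dominant and between 11576 and 15231 CPM in subordinate libraries. No miRNA marks granulosa cells alone, so the label was not checked further. Whether other cells contribute to the differences of the members was not tested, and fewer cells of a type cannot be told from less RNA per cell in such pools.

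Of the related miRNAs outside the rule, bta-miR-424-5p, which belongs to the same extended family but to an X-linked cluster with miR-503, differed far more. It had 1560, 1336 and 2067 CPM in dominant and 194.9, 272 and 392 CPM in subordinate libraries (log2 fold change 2.53, 95% interval 1.84 to 3.23, adjusted p = 5.00e-04 in edgeR's test). Bta-miR-503-5p had between 1 and 10 reads per library, and its log2 fold change of 0.69 had a 95% interval of -0.99 to 2.37. With both added, the sum of all members was 19053 ± 1479 CPM in dominant and 16254 ± 1573 CPM in subordinate follicles (SD, n = 3 each). The ratio was 1.17, and the groups no longer overlapped, by a narrow margin. Added to the members with the miR-15/16 seed alone, they gave 15320 ± 1331 and 13731 ± 1406 CPM (SD, n = 3 each). That ratio was 1.12, and the groups overlapped. On average bta-miR-424-5p was thus above bta-miR-16a in dominant follicles and near bta-miR-15a in subordinate ones.

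Over all 6 libraries the members varied less than the median miRNA of like depth. The coefficient of variation of the CPM was 11.1% for bta-miR-497 and 11.7% for bta-miR-16a. Of the 134 miRNAs that averaged 50 reads or more, 9 and 10 varied less than these, respectively. It was between 16.4 and 19.99% for bta-miR-16b, bta-miR-15b, bta-miR-15a and bta-miR-103, and 25.1 and 26.6% for bta-miR-195 and bta-miR-107, against a median of 27.9%. MiR-16 and miR-103 are often used as references in qPCR of miRNAs, and of these bta-miR-16b and bta-miR-103 varied more than 20 and 34 of the 134 miRNAs, respectively.

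Other miRNAs followed the sums closely. The profile of the 6 summed members with the miR-15/16 seed over the 6 libraries was nearest to those of bta-let-7i, bta-let-7a-5p and bta-let-7g, with root mean square differences of 0.097, 0.11 and 0.12 in centred log2 CPM. The median over the other miRNAs that averaged 50 reads or more was 0.42. The sum of miR-103 and miR-107 was nearest to bta-let-7b, bta-miR-30b-5p and bta-miR-30a-5p, with 0.051, 0.082 and 0.090 against a median of 0.58. Their log2 fold changes were 0.55, 0.55 and 0.58 (adjusted p = 0.0375, 0.0464 and 0.0221 in edgeR's test), also below the fold threshold. These miRNAs were picked for likeness to that sum, so similar fold changes and p-values follow from the choice. Likeness over 6 libraries describes the profiles only.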

How the data were processed

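Small RNA libraries were made by the authors with the TruSeq kit from pooled granulosa cell RNA. The authors trimmed reads with Cutadapt and Seqtk, mapped them to the bovine genome (UMD3.1 per the labels) with Bowtie and counted them on known miRBase miRNAs with miRDeep2. The deposited values are raw counts of reads per pair of mature miRNA and precursor, 1 file per library, without normalization. For each mature name the largest precursor row was used. Groups came from the follicle type label. Testing used edgeR 4.0.16 in R 4.3.3 with TMM factors and its quasi-likelihood test, with follicle type and no covariate, over the 353 miRNAs that had 1 read or more in 2 or more of the 3 replicates of either group, and Benjamini-Hochberg adjustment over all of them. The standard error was taken as the absolute log2 value over the root of F, and the 95% interval follows from it. The script was tested on simulated data. Ratios of reads were compared by exact permutation tests over libraries in scipy 1.17.1.

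Same-numbered libraries of the groups correlated in their deviations from the group means over 194 miRNAs (r = 0.14, 0.38 and 0.41). The replicate number was therefore tried as a tentative pairing, in an alternative fit and in the comparison number by number. The main test left it out. Of the 6 pairs with different numbers, dominant replicate 2 with subordinate replicate 1 (r = 0.19) and dominant replicate 1 with subordinate replicate 2 (r = 0.12) also exceeded 0.1. The pairing comes from the data and the labels' numbers, as the labels name no shared animal. Replicates of a group differed far beyond counting noise. The members and lists were chosen with earlier results of these data known. Named were the members, bta-miR-424-5p and bta-miR-503-5p, the marker lists and the 3 nearest profiles to each sum. Alternatives were DESeq2 1.42.0, other size factors, total count, other filters (none, or 10 reads in 3 libraries), summed precursor rows, the replicate block and each library left out. Mature sequences were not used here.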

Additional observations from a re-analysis of the deposited data

How the results depend on the processing

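Of 306 recomputed values, 287 counted as unchanged, by rules that differed between kinds of value. Counts could move by a wide margin, summed levels had to stay within the spread, and ratios of members had to keep their sign. For example, 2 members passing the false discovery rate alone in place of 3 counted as unchanged. So did the number of all miRNAs called without the fold threshold, although it was well above the 76 of the main fit. The tally thus does not show that counts stayed close to their main values. Fold changes of members had to keep their sign and their call at the fold threshold. No member was called at that threshold, so a lost pass by false discovery rate alone did not count as a change of its fold change. The sign of bta-miR-497 turned in 8 alternatives, and it was not called in any. Its log2 fold change was -0.014 with DESeq2, -0.012 with DESeq2's size factors in edgeR, -0.017 with no filter on low counts, -0.030 with the sum over precursor rows and -0.19 with dominant replicate 3 alone, an alternative chosen after seeing the data. It ranged from -0.070 to 0.10 when 1 library was left out. The number of members called was 0 in each alternative that kept the fold threshold and 3 without it. The number of members that passed the false discovery rate alone ranged from 1 to 3 when 1 library was left out and was 0 with dominant replicate 3 alone. That setting called 39 miRNAs in all, 25 higher and 14 lower, from 76. The number called lower ranged from 22 to 38 when 1 library was left out, against 34 in the main fit. Total count scaling moved the log2 ratio of summed levels to 0.33 for the 8 members, 0.23 for the 6 with the miR-15/16 seed and 0.77 for the pair of miR-103 and miR-107; its shift of the median of all miRNAs goes the same way. With the replicate block the adjusted p was 0.0984 for bta-miR-103, 0.0532 for bta-miR-107 and 0.0729 for bta-miR-195, with 71 miRNAs called in all, and pairing changed no call of a member. The family sum with further miRNAs of the extended family was computed only with bta-miR-424-5p and bta-miR-503-5p. These were named from general knowledge, and whether they share the whole seed was not checked by sequence. The 3 libraries per group limit every comparison, and the exact tests could not reach 0.05.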
